A study of Mus musculus with 50 samples.

Results

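The spleens of BALB/c mice taken 1 h after an injection of CpG oligodeoxynucleotides (ODN) were compared with spleens taken 0.5 h after the same injection, to show which transcripts start or end to change between these times. The comparison used 8 of the 50 arrays of the series, 4 for each time, chosen by the agent, time and strain in the array titles. All mice were female wild-type BALB/c mice, and both groups had received 400 µg of an equimolar mixture of CpG ODN 1555 and 1466 into the peritoneal cavity. Spleens of 6 untreated BALB/c mice and 4 spleens taken 3 h after the same mixture gave the levels before and after. Control ODN arrays of BALB/c mice belong to 3 h, so what the injection alone changed by 0.5 h or 1 h cannot be told apart here from what the CpG ODN changed.

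Each array measured the log2 ratio of whole spleen RNA to a reference RNA pooled from several mouse cell types and tissues, and a level below is this ratio after the array's median was subtracted. The series text describes the arrays of a time point as independent experiments, and whether an array held 1 mouse or a pool is not stated. In whole tissue, fewer cells of a type and less RNA per cell cannot be told apart. The identifiers that the array database gave to the arrays fall into runs of adjacent numbers. All 0.5 h arrays and 1 h replicates 1 and 2 belong to the first run, whereas 1 h replicates 3 and 4 belong to a second run without a 0.5 h array. A change in the first run alone therefore sets 1 h replicates 1 and 2 against all 0.5 h arrays. For Cxcl2, Tnf, Cd83, Fos, Egr1, Icam1, Irf1, Nfkbiz, Ier3 and Phlda1, replicates 1 and 2 were the higher ones at both times. The first-run changes of such genes do not compare like replicates. Of the genes named below, 17 that were called over all arrays missed the threshold in the first run alone with adjusted p-values between 0.054 and 0.24 (Il1rn, Tnfaip3, Ccn1, Cebpd, Mx1, Ifit1, Mx2, Ifnab, Csta2, Cdkn1a, Acod1, Olfr700, Slc45a3, Vhl, Hoxd4, Megf10 and Glod5), and 4 without a call over all arrays (Fos, Cxcl2, Tnf and Egr2) passed it there.

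Unmethylated CG dinucleotides in DNA are bound by Toll-like receptor 9 (TLR9) in the endosomes of B cells and dendritic cells. The receptor signals through the adaptor MyD88 to the transcription factor NF-kB and to MAP kinases, which act on AP-1 factors, and in plasmacytoid dendritic cells also to interferon genes. Immediate early genes are transcribed by factors already present in the cell, and many cytokine genes follow them. The mixture that set off the response is shown with its CG dinucleotides in capitals.
ODN 1555: gctagaCGttagCGt
ODN 1466: tcaaCGttga
ODN 1555 has 15 bases with 2 CG dinucleotides, and ODN 1466 has 10 bases with 1.

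Between 0.5 h and 1 h some of the transcripts of chemokines (9 of 28 tested), AP-1 and ATF factors (3 of 12) and cytokines (4 of 28) rose. So did some neutrophil markers (3 of 17) and some EGR, NR4A and IER early genes (3 of 19). These had the highest shares of rises among the 33 lists, and few transcripts fell. Of 15252 genes tested with limma, 98 (0.643%) were higher at 1 h and 8 (0.0525%) were lower at a Benjamini-Hochberg adjusted p under 0.05. At this share of falls, a gene list is likely to hold none. The rises of the 98 genes lay between 0.72 and 3.22 on the log2 scale, with a median of 1.26, and 77 of them were at least 2-fold. Among the 8 falls, 3 were at least 2-fold. The 4 levels at 1 h lay wholly above those at 0.5 h for 94 of the 98 genes. The same held for 469 of all genes tested (3.08%), and 468 genes (3.07%) lay wholly below. Against untreated spleen, 38 genes (0.249%) were higher at 0.5 h and 456 (2.99%) at 1 h, and 1 (0.00656%) and 49 (0.321%) were lower. From 1 h to 3 h, 616 genes (4.04%) rose and 910 (5.97%) fell. These comparisons share array groups with each other and with the comparison of the times. The median change of all genes from 0.5 h to 1 h was 0.00. In the first run alone, with 2 arrays at 1 h, 498 genes were higher and 197 lower, and with the run as a factor 96 were higher and 8 lower, of which 64 and 1 were also called without it. Leaving out 1 h replicate 2 left 44 higher genes and leaving out 0.5 h replicate 3 left 51, and 39 of the 106 genes stayed called whichever of the 8 arrays was left out.

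**Figure D1:**
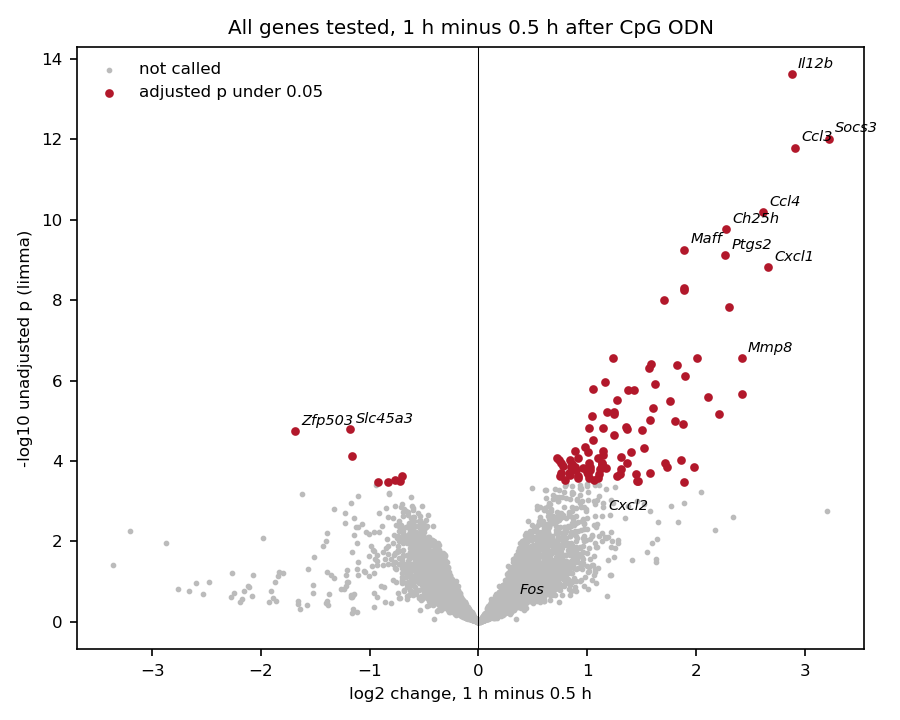
Each point is a gene, with the log2 change from 0.5 h to 1 h on the horizontal axis and the -log10 of limma's unadjusted p on the vertical axis. Red points are the 98 higher and 8 lower genes with an adjusted p under 0.05, and Il12b, Socs3 and Ccl3 lie at the top right.

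Chemokines, the secreted proteins that draw leukocytes, were the list with the highest share of rises. Of 28 chemokine genes tested, 9 rose (32.1%, against 0.643% of all genes) and none fell, with a median change of 0.45. Ccl3 encodes an attractant of monocytes and T cells, and its levels were -2.44, -2.58, -2.47 and -2.65 in the 0.5 h arrays and 0.28, 0.69, 0.13 and 0.41 in the 1 h arrays. The groups stood far apart and the spread within each was small, so that Ccl3 rose by 2.91 ± 0.26 (SE, limma, adjusted p = 8.4e-09), or 7.5-fold. Its neighbour Ccl4 encodes a related attractant and had levels of 1.59, 1.18, 0.29 and -0.10 at 0.5 h and of 2.92, 3.75, 3.15 and 3.60 at 1 h. Ccl4 rose by 2.62 ± 0.28 (adjusted p = 2.5e-07), and a second probe gave 2.69. The untreated arrays had a median Ccl4 level of -1.35, below all 0.5 h arrays, and Ccl4 was 2.13 above untreated spleen at 0.5 h (adjusted p = 1.7e-06). Untreated Ccl3 levels, between -3.76 and -3.07, also lay below all 0.5 h arrays. Ccl3 at 0.5 h was 0.89 above untreated spleen without a call (adjusted p = 0.2).

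Cxcl1, an attractant of neutrophils, had levels of -0.95, -1.02, -2.18 and -2.43 at 0.5 h and of 0.91, 1.67, 0.22 and 1.27 at 1 h. The groups did not overlap, and Cxcl1 rose by 2.66 ± 0.32 (adjusted p = 2.9e-06), while it was already 2.55 ± 0.29 above untreated spleen at 0.5 h (adjusted p = 1.1e-06). At 3 h its levels were -1.78, -1.31, -1.73 and -1.56, a difference of -2.61 ± 0.32 from 1 h (adjusted p = 3.8e-07). Cxcl2, a neutrophil attractant of the same family, was named after its values were seen. Its levels were 4.66, 4.43, 2.99 and 3.28 at 0.5 h and 5.33, 6.05, 3.97 and 4.56 at 1 h. These groups overlapped, and replicates 1 and 2 were the higher ones in both. The change of 1.14 had a 95% interval from 0.43 to 1.84 and an adjusted p of 0.17 (1.85 in the first run alone, adjusted p = 0.018), although Cxcl2 stood 4.18 ± 0.32 above untreated spleen at 0.5 h (adjusted p = 9.0e-11).

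The 3 ligands of the receptor CXCR3, which attract activated T cells and NK cells, rose as well. Cxcl10 levels were 3.46, 2.97, 2.93 and 2.99 at 0.5 h and 4.42, 5.28, 5.46 and 5.23 at 1 h, a rise of 2.01 ± 0.31 (adjusted p = 2.8e-04). Cxcl11 levels were 0.64, 0.39, 0.31 and 0.07 at 0.5 h and 1.50, 2.74, 2.83 and 3.21 at 1 h, a rise of 2.21 ± 0.41 (adjusted p = 0.0031). For both genes 1 h replicate 1 was the lowest of its group and still above every 0.5 h array. At 3 h they were higher again, by 1.25 ± 0.31 for Cxcl10 (adjusted p = 0.0082) and by 2.10 ± 0.41 for Cxcl11 (adjusted p = 7.7e-04). Cxcl9 rose by 1.47 ± 0.36 (adjusted p = 0.047). The remaining chemokines that rose were Ccl2, an attractant of monocytes (1.59 ± 0.25), Xcl1, an attractant of cross-presenting dendritic cells (1.58 ± 0.38), and Cxcl5, an attractant of neutrophils (1.15 ± 0.25). Leaving out any 1 array kept the calls of Ccl3, Ccl4, Cxcl1, Cxcl10, Cxcl11 and Ccl2. The adjusted p of Cxcl9 reached 0.19 and that of Xcl1 0.15 without 0.5 h replicate 3, and that of Cxcl5 0.14 without 1 h replicate 2.

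**Figure D2:**
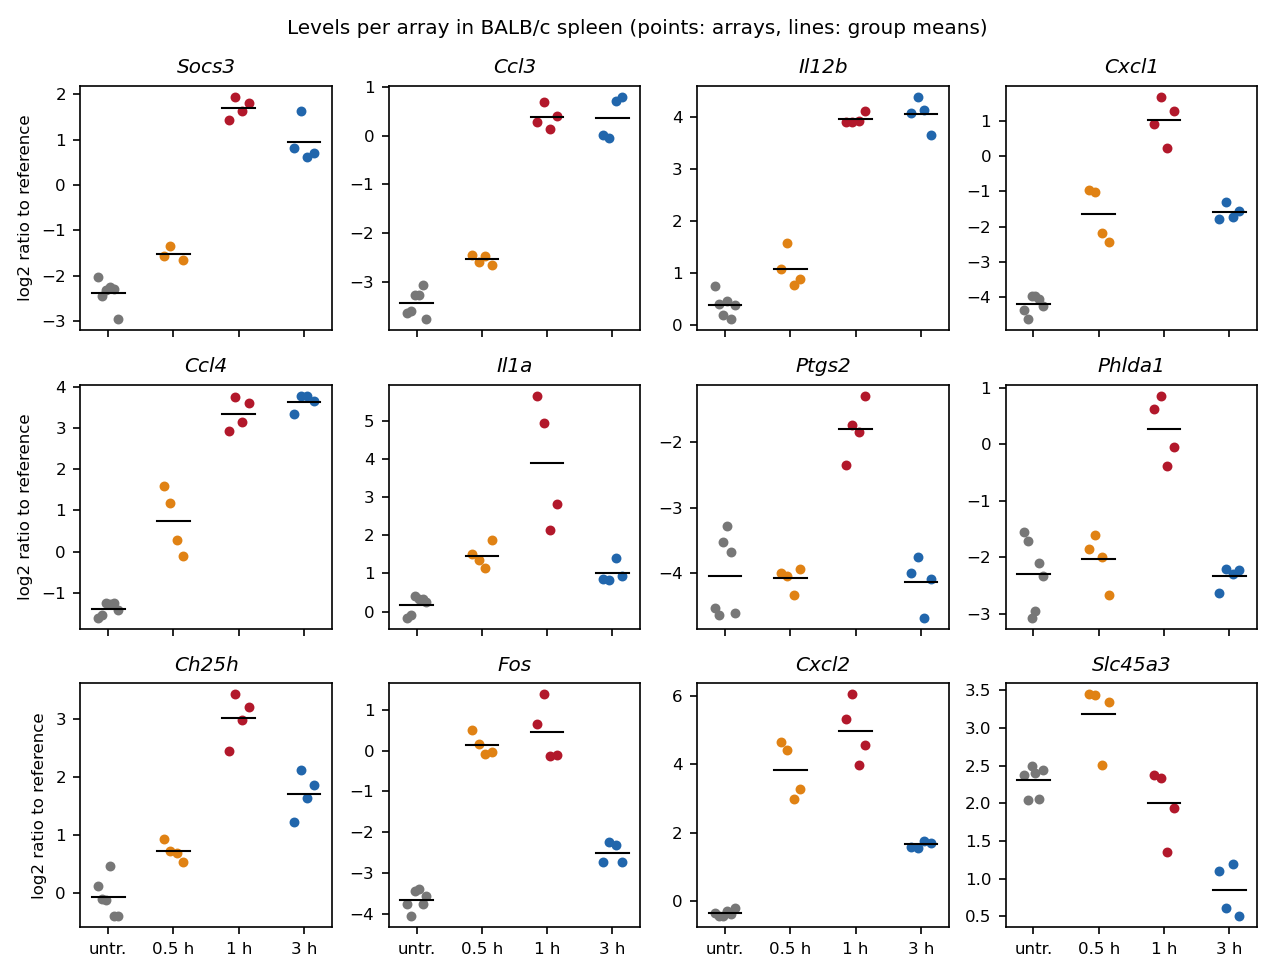
Levels of 12 genes as log2 ratios to the reference RNA, with a point for each array and a line for the mean of the 6 untreated, 4 0.5 h, 4 1 h and 4 3 h arrays. Socs3, Ccl3 and Il12b are low at 0.5 h and high at 1 h, Ptgs2 and Phlda1 are high at 1 h alone, and Fos and Cxcl2 are already high at 0.5 h.

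Of 28 cytokine genes tested, 4 rose (14.3%, against 0.643% of all genes) and none fell, with a median change of 0.22. Il12b encodes the p40 chain shared by the cytokines IL-12 and IL-23 and had the smallest p of all genes. Its levels were 1.08, 1.58, 0.78 and 0.90 at 0.5 h and 3.90, 3.91, 3.93 and 4.11 at 1 h. The 1 h arrays of both runs agreed closely, and Il12b rose by 2.88 ± 0.20 (adjusted p = 3.7e-10), or 7.3-fold. It stayed at this level at 3 h, where its levels were 4.08, 4.38, 4.13 and 3.65. Il6 encodes a cytokine that drives the acute phase response, with levels of -0.62, -1.19, -1.08 and -1.80 at 0.5 h and of -0.02, 1.49, 0.79 and 1.49 at 1 h. Il6 rose by 2.11 ± 0.37 (adjusted p = 0.0015), with 1 h replicate 1 the lowest of its group and above all 0.5 h arrays.

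Il1a, which encodes interleukin-1 alpha, had levels of 1.50, 1.35, 1.14 and 1.87 at 0.5 h and of 5.65, 4.93, 2.14 and 2.82 at 1 h. The groups did not overlap, but the 1 h levels of the first run stood far above those of the second. Il1a rose by 2.42 ± 0.42 over all arrays (adjusted p = 0.0013) and by 3.82 in the first run alone (adjusted p = 6.5e-06). At 3 h its levels were 0.86, 0.83, 1.40 and 0.94, which is 2.88 ± 0.42 below 1 h in the fit (difference -2.88, adjusted p = 1.0e-05). Il1rn, which encodes the antagonist of the interleukin-1 receptor, rose by 0.89 ± 0.21 (adjusted p = 0.029, and 0.17 without 0.5 h replicate 3).

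Other cytokines had gone up before 0.5 h, and for 2 of them, named after their values were seen, no further change was called over all arrays. Tnf, which encodes tumor necrosis factor, had levels of 3.41, 3.23, 1.67 and 2.59 at 0.5 h and of 4.94, 4.78, 2.41 and 3.33 at 1 h. In both groups replicates 1 and 2 were the higher ones, the groups overlapped, and the change of 1.14 (95% interval 0.35 to 1.94) had an adjusted p of 0.25. In the first run alone Tnf rose by 2.14 (adjusted p = 0.0051). Against untreated spleen Tnf was 2.14 ± 0.36 higher at 0.5 h (adjusted p = 8.3e-04). Il1b, which encodes interleukin-1 beta, was 2.72 ± 0.38 above untreated spleen at 0.5 h (adjusted p = 4.2e-05) and changed by 0.63 to 1 h (95% interval -0.22 to 1.48, adjusted p = 0.64).

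Promoters of the genes that rose were searched for matches to the NF-kB consensus in RefSeq sequences of assembly GRCm38.p6, over 250 bases before to 50 bases after each gene's start. A promoter was found for 76 of the 98 genes that rose and for 12111 of the 15252 genes tested. On either strand, 16 of the 76 (21.1%) held an NF-kB match, against 9.71% of all promoters. The AP-1 letters TGANTCA stood in 14.5% against 6.08%, and the TATA box letters TATAAA in 19.7% against 10.2%. The interferon-stimulated response element stood in 6.58% against 3.19%, the cAMP response element TGACGTCA in 1.32% against 2.71%, and the serum response element in 0% against 1.43%. Promoters of the genes that rose held a median of 10.0 CG dinucleotides, against 18.0 in all promoters. A match describes the letters of this window, and no binding was measured.

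Promoters of 3 genes that rose and of Cxcl2, which was already above untreated spleen at 0.5 h, are shown 5′ to 3′ on the gene's strand with the NF-kB matches in capitals. In Cxcl1, Cxcl2 and the second stretch of Cxcl10 a match on each strand overlaps the other by all but 1 base, so that 11 letters are capital.
Cxcl1, chr5:90890995-90891294, plus strand: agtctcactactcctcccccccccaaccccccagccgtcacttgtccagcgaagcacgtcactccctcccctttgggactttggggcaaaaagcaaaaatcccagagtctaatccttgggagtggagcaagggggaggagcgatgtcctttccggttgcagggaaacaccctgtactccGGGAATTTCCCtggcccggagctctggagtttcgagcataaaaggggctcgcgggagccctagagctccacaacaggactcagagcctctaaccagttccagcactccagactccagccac
Cxcl2, chr5:90903649-90903948, plus strand: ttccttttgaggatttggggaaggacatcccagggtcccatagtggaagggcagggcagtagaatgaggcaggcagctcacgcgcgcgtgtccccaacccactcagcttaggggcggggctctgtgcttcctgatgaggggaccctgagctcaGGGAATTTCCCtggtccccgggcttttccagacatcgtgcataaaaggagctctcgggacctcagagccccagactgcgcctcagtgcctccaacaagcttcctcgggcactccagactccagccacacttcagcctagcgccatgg
Il6, chr5:30012864-30013163, plus strand: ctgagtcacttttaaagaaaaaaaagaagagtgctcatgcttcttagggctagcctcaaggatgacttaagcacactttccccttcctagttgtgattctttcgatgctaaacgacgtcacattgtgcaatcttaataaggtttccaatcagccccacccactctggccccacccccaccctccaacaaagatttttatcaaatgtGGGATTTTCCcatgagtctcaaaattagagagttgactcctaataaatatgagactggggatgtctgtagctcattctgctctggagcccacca
Cxcl10, chr5:92348840-92349139, minus strand: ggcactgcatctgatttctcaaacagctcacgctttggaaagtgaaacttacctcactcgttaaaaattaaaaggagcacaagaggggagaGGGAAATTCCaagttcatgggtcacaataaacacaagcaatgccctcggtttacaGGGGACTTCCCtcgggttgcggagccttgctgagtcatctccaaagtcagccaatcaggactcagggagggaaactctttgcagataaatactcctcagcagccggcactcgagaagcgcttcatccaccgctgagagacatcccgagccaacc
The match of Cxcl1 begins 71 bases before the start and that of Cxcl2 97 bases before it, and both genes carry the same 11 capital letters, although Cxcl1 rose between the times and Cxcl2 had no call over all arrays. The match of Il6 begins 44 bases before the start, and those of Cxcl10 begin 159 and 104 bases before it. No match was found in the windows of Socs3, Ccl3, Il12b, Icam1 or Ptgs2, which were among the largest rises.

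Among regulators of signalling the largest rise of all genes was that of Socs3, which encodes an inhibitor of cytokine receptor signalling through STAT3. Its levels were -1.56, -1.34 and -1.65 in the 3 measured 0.5 h arrays, with replicate 3 not measured, and 1.43, 1.94, 1.63 and 1.82 at 1 h. The groups stood far apart, and Socs3 rose by 3.22 ± 0.28 (adjusted p = 7.2e-09), or 9.3-fold, after a change of 0.87 from untreated spleen at 0.5 h (adjusted p = 0.35). Untreated Socs3 levels lay between -2.96 and -2.03, below the measured 0.5 h arrays. In the list of IRF, STAT and SOCS genes 2 of 27 rose (7.41%, against 0.643% of all genes), Socs3 and Irf1. Irf1 encodes an interferon regulatory factor, and its levels of 2.20, 1.81, 1.41 and 1.60 at 0.5 h and 3.16, 3.47, 2.54 and 2.32 at 1 h gave a rise of 1.12 ± 0.26 (adjusted p = 0.031, and 0.18 without 1 h replicate 2). Other probes of Irf1 changed by 1.08, 0.78 and 0.42.

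Of 21 genes for NF-kB subunits, inhibitors and feedback proteins 2 rose (9.52%, against 0.643% of all genes), with a median change of 0.50 over the list. Nfkbiz encodes an atypical IkB protein that supports the transcription of secondary genes such as Il6. Its levels were 1.95, 1.86, 0.97 and 0.82 at 0.5 h and 2.69, 2.93, 2.11 and 2.46 at 1 h, a rise of 1.15 ± 0.23 (adjusted p = 0.0057). Tnfaip3 encodes the ubiquitin-editing enzyme A20, and its levels were 2.85, 2.52, 1.62 and 1.71 at 0.5 h and 2.96, 3.39, 3.04 and 3.34 at 1 h, a rise of 1.01 ± 0.24 (adjusted p = 0.036). Both were already above untreated spleen at 0.5 h, Nfkbiz by 2.66 ± 0.21 (adjusted p = 1.2e-10) and Tnfaip3 by 1.76 ± 0.22 (adjusted p = 4.6e-06). The call of Nfkbiz was lost without 1 h replicate 2 (adjusted p = 0.052) and that of Tnfaip3 without 0.5 h replicate 3 (0.19).

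Several immediate early genes were above untreated spleen at 0.5 h, and part of the list rose from 0.5 h to 1 h. Of 12 AP-1 and ATF genes tested, Maff, Atf3 and Fosl2 rose (25%, against 0.643% of all genes) and none fell, with a median change of 0.43. Fos, the prototype of these genes, had levels of 0.50, 0.15, -0.09 and -0.04 at 0.5 h and of 0.66, 1.38, -0.13 and -0.12 at 1 h. These groups overlapped, and the change of 0.32 ± 0.30 had a 95% interval from -0.29 to 0.93 (adjusted p = 0.75), while Fos was 3.79 ± 0.27 above untreated spleen at 0.5 h (adjusted p = 5.1e-11). In the first run alone, Fos differed by 0.89 (adjusted p = 0.044), and replicates 1 and 2 were the higher ones at both times. Junb was 1.65 ± 0.26 above untreated spleen at 0.5 h (adjusted p = 2.7e-04) and changed by 0.68 ± 0.28 to 1 h (95% interval 0.11 to 1.25, adjusted p = 0.4). At 3 h Fos was lower than at 1 h (difference -2.95, adjusted p = 8.5e-09).

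Maff, which encodes a small Maf factor without a transactivation domain, had levels of -1.56, -1.53, -2.16 and -1.67 at 0.5 h and of -0.23, 0.62, -0.01 and 0.27 at 1 h. The groups did not overlap, and Maff rose by 1.89 ± 0.22 (adjusted p = 1.4e-06), although a second probe of the gene changed by 0.17. Atf3, which encodes a repressor of cytokine genes, had levels of 0.28, 0.10, -0.15 and 0.21 at 0.5 h and of 1.41, 2.00, 0.99 and 0.99 at 1 h. Atf3 rose by 1.24 ± 0.19 (adjusted p = 2.8e-04) and from 1 h to 3 h dropped by 1.00 (adjusted p = 6.2e-04). Fosl2, a Fos-related factor, rose by 0.85 ± 0.20 (adjusted p = 0.029, and 0.16 without 1 h replicate 2), and its other probes changed by 1.02 and 0.33. The other 9 genes of the list, Fos and Junb included, changed by between -0.28 and 0.90 without a call.

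Of 19 EGR, NR4A and IER genes tested, Ier3, Ccn1 and Myc rose (15.8%, against 0.643% of all genes) and none fell, with a median change of 0.39. Ier3 encodes an early response protein linked to cell survival, with levels of -2.35, -2.55, -3.31 and -2.93 at 0.5 h and of -1.16, -0.70, -1.66 and -1.34 at 1 h. Ier3 rose by 1.57 ± 0.25 (adjusted p = 4.3e-04), although a second probe, measured on 3 of the 0.5 h arrays, changed by -0.27. Ccn1, which encodes a secreted matrix protein, rose by 1.02 ± 0.25 (adjusted p = 0.043) and by 2.11 on a second probe, and its adjusted p was 0.19 without 0.5 h replicate 1. Myc, a driver of cell growth, had levels of -0.20, 0.21, 0.02 and 0.48 at 0.5 h and of 1.37, 1.14, 0.88 and 0.97 at 1 h, a rise of 0.96 ± 0.23 (adjusted p = 0.031, and 0.16 without 0.5 h replicate 1). A second probe of Myc changed by 0.59. Egr2, which encodes a zinc finger factor, changed by 0.86 ± 0.22 (adjusted p = 0.056) over 3 measured 1 h arrays, and by 1.10 in the first run alone (adjusted p = 0.0089).

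Egr1, the zinc finger factor often used as a sign of MAP kinase activity, had levels of -0.51, -0.62, -1.68 and -1.38 at 0.5 h and of -0.51, 0.03, -1.35 and -0.77 at 1 h. These overlapped, and the change was 0.39 ± 0.32 (95% interval -0.25 to 1.04, adjusted p = 0.7), after 2.33 ± 0.29 from untreated spleen to 0.5 h (adjusted p = 4.4e-06). Nr4a1, an orphan nuclear receptor, was 2.74 ± 0.31 above untreated spleen at 0.5 h (adjusted p = 7.9e-07) and changed by 0.75 ± 0.34 to 1 h (95% interval 0.06 to 1.44, adjusted p = 0.46). Zfp36, whose protein speeds the decay of cytokine mRNA, was 2.39 ± 0.22 above untreated spleen at 0.5 h (adjusted p = 5.4e-09) and changed by 0.41 ± 0.24 (95% interval -0.07 to 0.89, adjusted p = 0.58). Dusp1, a phosphatase of MAP kinases that was named after its values were seen, was 2.55 ± 0.30 above untreated spleen at 0.5 h (adjusted p = 1.8e-06) and changed by 0.32 ± 0.33 (95% interval -0.35 to 1.00, adjusted p = 0.78). No gene of the 9 mRNA decay factors was called, where 0.695% of all genes were. Of 12 MAP kinase phosphatases and related inhibitors 1 rose (8.33%, against 0.643% of all genes), Spry4, by 1.04 ± 0.20 (adjusted p = 0.0034).

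**Figure D3:**
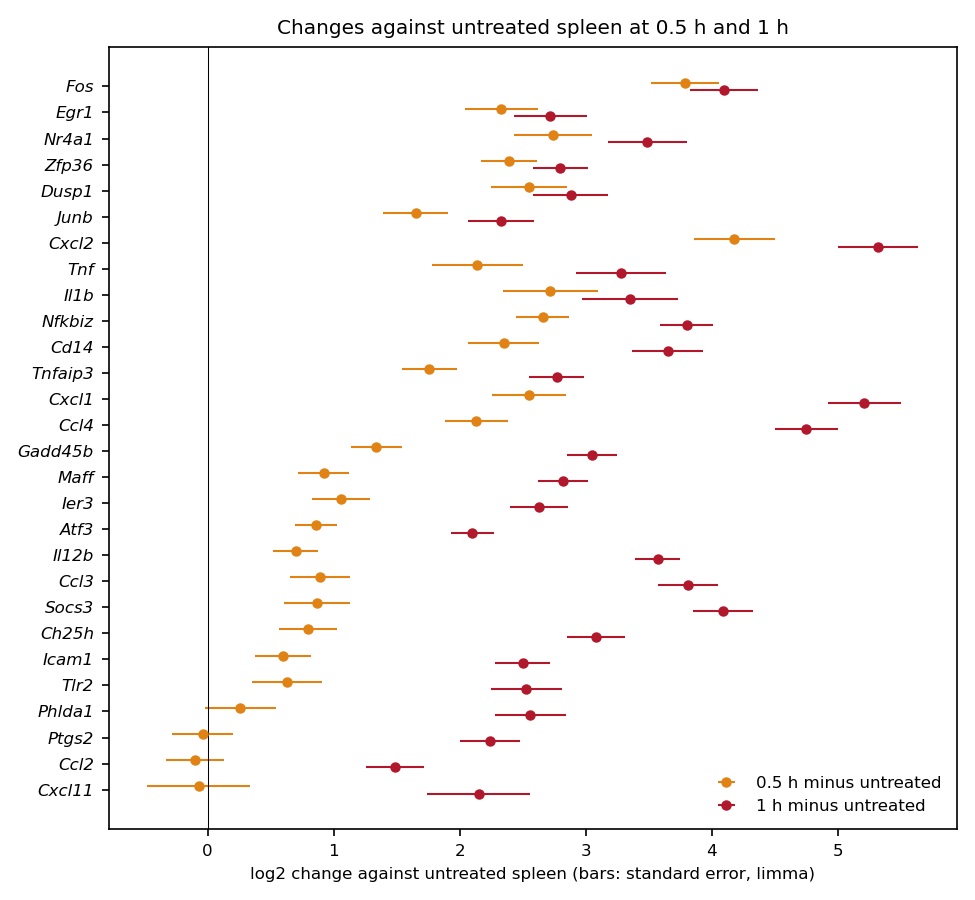
Log2 changes of 28 genes against untreated spleen at 0.5 h (orange) and 1 h (red), with standard errors from limma as bars. For Fos, Egr1 and Dusp1 the bars of both times overlap, whereas Socs3, Ccl3, Il12b, Phlda1 and Ptgs2 lie within 1 log2 unit of untreated spleen at 0.5 h and above 2 at 1 h.

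Among the Kruppel-like and other early regulators 2 of 19 rose (10.5%, against 0.643% of all genes). Gadd45b encodes a stress protein that acts on MAP kinase pathways, with levels of -0.10, 0.17, -0.41 and -0.15 at 0.5 h and of 1.38, 1.80, 1.52 and 1.65 at 1 h. The groups stood apart with little spread, and Gadd45b rose by 1.71 ± 0.22 (adjusted p = 1.4e-05). Cebpd, which encodes a C/EBP factor of the acute phase response, rose by 1.36 ± 0.26 (adjusted p = 0.0057) with levels of -0.29, -0.65, -0.73 and -0.59 at 0.5 h and of 0.64, 0.44, 1.13 and 1.00 at 1 h.

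A further set of large rises belonged to enzymes, receptors and adhesion molecules. Ptgs2 encodes cyclooxygenase-2, the inducible enzyme of prostaglandin synthesis, and was the 1 gene of 13 on the prostaglandin list that rose (7.69%, against 0.643% of all genes). Its levels were -4.00, -4.04, -4.34 and -3.94 at 0.5 h, within the untreated range of -4.64 to -3.28, and -2.35, -1.74, -1.84 and -1.29 at 1 h. Ptgs2 rose by 2.27 ± 0.27 (adjusted p = 1.7e-06) and by 2.52 on a second probe, and its 3 h levels were -3.99, -3.75, -4.68 and -4.09, of which the lowest lay just below the untreated range and the others within it. Phlda1, which encodes a pleckstrin-homology-like protein, had levels of -1.86, -1.61, -1.99 and -2.66 at 0.5 h and of 0.63, 0.86, -0.39 and -0.04 at 1 h. Phlda1 rose by 2.30 ± 0.31 (adjusted p = 2.0e-05), and its 3 h levels lay between -2.64 and -2.20, below every 1 h array. Ch25h encodes the enzyme that makes 25-hydroxycholesterol, and its levels of 0.93, 0.73, 0.69 and 0.54 at 0.5 h and 2.44, 3.42, 2.97 and 3.20 at 1 h gave a rise of 2.28 ± 0.25 (adjusted p = 5.3e-07).

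Icam1, the adhesion molecule that leukocyte integrins bind, had levels of 3.38, 3.18, 2.66 and 2.91 at 0.5 h and of 5.01, 5.63, 4.62 and 4.46 at 1 h. The groups did not overlap, and Icam1 rose by 1.89 ± 0.24 (adjusted p = 8.6e-06). With Selp, which encodes P-selectin (1.38 ± 0.24, adjusted p = 0.0011), it made 2 of 15 adhesion and vascular genes that rose (13.3%, against 0.643% of all genes). Among 20 Toll-like receptor and adaptor genes, Tlr2 and Cd14 rose (10%, against 0.643% of all genes). They encode sensors of bacterial lipoproteins and lipopolysaccharide. Tlr2 levels were 1.35, 0.56, 0.63 and 1.03 at 0.5 h and 3.45, 3.31, 2.20 and 2.22 at 1 h, a rise of 1.90 ± 0.31 (adjusted p = 6.1e-04) and of 2.48 in the first run alone (adjusted p = 1.0e-04). Cd14 was 2.35 ± 0.28 above untreated spleen at 0.5 h (adjusted p = 2.7e-06) and rose by a further 1.30 ± 0.31 (adjusted p = 0.036, and 0.2 without 0.5 h replicate 3). Tlr9, the receptor of the injected ODN, was named after its values were seen and changed by 0.30 ± 0.16 (95% interval -0.01 to 0.62, adjusted p = 0.53).

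Cd83, a marker of mature dendritic cells and activated B cells, was the 1 gene of 16 on the list of dendritic cell maturation and co-stimulation that rose (6.25%, against 0.643% of all genes). Its levels were 6.52, 6.28, 4.74 and 5.16 at 0.5 h and 8.31, 8.43, 6.84 and 6.67 at 1 h. At both times replicates 1 and 2 exceeded replicates 3 and 4, and the rise of 1.89 ± 0.47 (adjusted p = 0.048) had an adjusted p of 0.23 without 1 h replicate 1. In the first run alone Cd83 rose by 2.70 (adjusted p = 0.0047). Rises of more than 3-fold were also called for Hcar2, a receptor of niacin and ketone bodies on myeloid cells (1.88 ± 0.36, adjusted p = 0.0049), and for Tnfaip2 (1.89 ± 0.24, adjusted p = 8.7e-06). The second probe of Tnfaip2 changed by 0.26. Nlrp3, the sensor of an inflammasome, was named after its values were seen and split between the runs, with 1.80, 1.39, -0.02 and 0.11 at 1 h against -0.79, -0.77, -0.10 and -0.67 at 0.5 h (1.40 ± 0.30, adjusted p = 0.018, and 0.12 without 1 h replicate 1). In the first run alone Nlrp3 rose by 2.17 (adjusted p = 2.9e-04).

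Of 34 interferon-stimulated genes tested 3 rose (8.82%, against 0.643% of all genes) and none fell, with a median change of 0.20. The mean level of the list lay between 0.63 and 0.89 at 0.5 h and between 2.81 and 3.17 at 3 h. At 1 h it was 0.80 and 0.84 in replicates 1 and 2 and 1.33 and 1.38 in replicates 3 and 4. Mx1 encodes an antiviral GTPase, with levels of 0.16, 0.57, 0.07 and 0.90 at 0.5 h and of 0.96, 1.89, 2.66 and 2.65 at 1 h. Mx1 rose by 1.61 ± 0.30 (adjusted p = 0.0026) and differed by 1.00 in the first run alone (adjusted p = 0.094), and a second probe changed by 0.78. Ifit1, an inhibitor of viral translation, had levels of 0.68, 0.85, 0.78 and 0.91 at 0.5 h and of 0.89, 1.83, 2.85 and 3.11 at 1 h, so that the groups overlapped. Ifit1 rose by 1.37 ± 0.27 over all arrays (adjusted p = 0.0058, and 0.051 without 1 h replicate 4) and differed by 0.56 in the first run alone (adjusted p = 0.19). Mx2 rose by 1.15 ± 0.25 (adjusted p = 0.018) and differed by 0.82 in the first run (adjusted p = 0.098), and its adjusted p was 0.1 without 1 h replicate 2. In the second run alone the change could not be computed, since it holds no 0.5 h array, and the part of the run in these rises was not tested. Of 10 type I and III interferon genes 1 rose (10%, against 0.643% of all genes), Ifnab, by 1.06 ± 0.26 (adjusted p = 0.046, and 0.21 without 0.5 h replicate 3). Interferon genes are near-identical copies whose probes may not tell them apart.

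The list mean of neutrophil markers was higher in all 1 h arrays than in all 0.5 h arrays. Of 17 markers tested Mmp8, Il1r2 and Lcn2 rose (17.6%, against 0.643% of all genes) and none fell. All 17 changed in the upward direction, as did 7644 of all 15252 genes. The median change of the 17 was 0.73 against 0.00 for all genes. Other lists were nearly as one-sided, with upward changes in 11 of 11 platelet and 29 of 30 DNA replication and mitosis genes. The same held for 15 of 16 dendritic cell maturation and 11 of 12 NK cell genes. The mean level of the 17 lay between 1.43 and 2.16 in untreated spleen, between 1.73 and 2.55 at 0.5 h and between 2.86 and 3.47 at 1 h, and it lay between 2.48 and 2.82 at 3 h. S100a8 and S100a9, whose proteins are abundant in mature neutrophils, changed by 0.25 ± 0.30 (adjusted p = 0.82) and 0.80 ± 0.47 (adjusted p = 0.6). Mmp8 encodes neutrophil collagenase, with levels of 2.53, 1.92, 1.62 and 2.41 at 0.5 h and of 3.73, 4.71, 4.71 and 5.00 at 1 h. Mmp8 rose by 2.42 ± 0.38 (adjusted p = 2.8e-04), and a second probe, measured on 2 of the 0.5 h and 3 of the 1 h arrays, changed by 2.94. Il1r2 encodes the decoy receptor of interleukin-1, and its levels of 2.20, 1.97, 2.10 and 2.39 at 0.5 h and 3.42, 3.83, 4.34 and 4.40 at 1 h gave a rise of 1.83 ± 0.29 (adjusted p = 3.6e-04). Lcn2, which encodes an iron-withholding protein, rose by 1.73 ± 0.40 (adjusted p = 0.029, and 0.15 without 0.5 h replicate 3).

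Genes outside the lists that neutrophils express rose beside them, and those other than Csta2 were named after their values were seen. Csta2 rose by 1.98 ± 0.46 (adjusted p = 0.029, and 0.074 in the first run alone), Stfa3 by 1.86 ± 0.42 (0.024) and Chil1 by 1.72 ± 0.39 (0.026). Il1f9, an interleukin-1 family cytokine, rose by 1.81 ± 0.35 (0.0042), and Hdc, the enzyme that makes histamine, by 1.45 ± 0.35 (0.036). Of these 5, Il1f9 kept its call with any 1 array left out, while the adjusted p of Csta2 reached 0.15, that of Stfa3 0.11, that of Chil1 0.12 and that of Hdc 0.19. The part of a change in cell number in the rises of the chemokines and cytokines above, which neutrophils can also make, was not tested.

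No member of the other 9 cell type lists was called, where 0.695% of all genes were. Median changes were between 0.01 and 0.25 for monocytes and macrophages, dendritic cells, B cells, T cells, NK cells and stroma, 0.45 for erythroid cells and 0.62 for platelets and megakaryocytes. The mean of the 11 platelet markers lay between 1.55 and 2.07 at 0.5 h and between 2.17 and 2.75 at 1 h. B cell markers had mean levels between 3.19 and 3.95 and erythroid markers between 3.24 and 4.76 in the 8 arrays, far above the reference, which is the pattern of spleen. Pancreatic enzymes, whose tissue touches the spleen, had a median change of -1.87 without a call, and their mean level was 6.41, 6.31, 5.81 and 0.35 at 0.5 h and 0.28, 6.40, 2.01 and 3.14 at 1 h. It ranged from 0.42 to 6.00 in the untreated arrays and did not follow the groups. The mean of 30 DNA replication and mitosis genes was -1.08, -1.57, 0.12 and 0.08 at 0.5 h and 0.23, -0.98, 0.15 and 0.04 at 1 h. Of these 30 genes, 29 changed upward, with a median change of 0.47, and none was called.

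**Figure D4:**
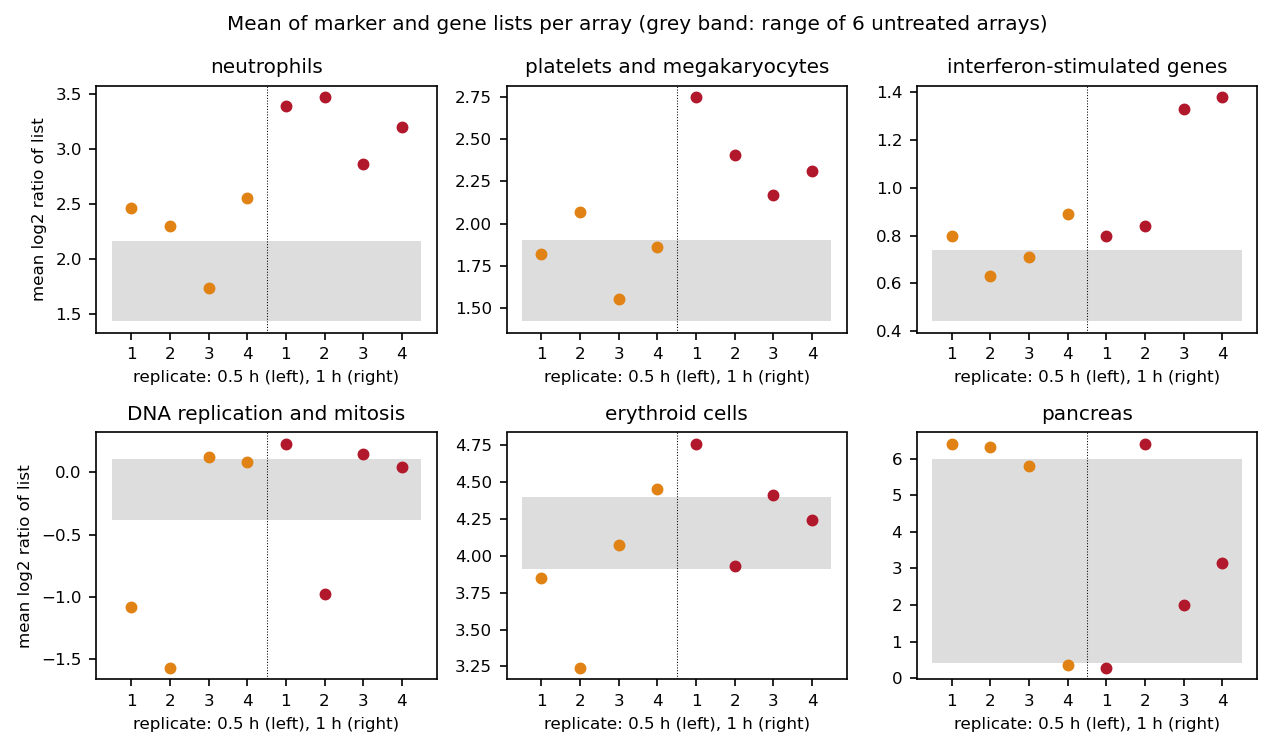
Mean log2 ratio of 6 gene lists in each 0.5 h array (orange, left) and 1 h array (red, right), by replicate number, with the range of the 6 untreated arrays as a grey band. Neutrophil and platelet means of all 1 h arrays lie above all 0.5 h arrays, interferon-stimulated genes are high in 1 h replicates 3 and 4, and the pancreas mean varies between arrays of both groups.

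Among lists of other stress and metabolic pathways, some held no call and others a higher share of rises than all genes. None of 15 BCL2 family, 13 heat shock, 15 glycolysis and 15 MHC class I genes was called, and the medians of these 4 lists lay between -0.12 and 0.09. Since 0.695% of all genes were called, lists of this size without a call do not stand apart from all genes. Of 17 genes known to respond to glucocorticoids Lcn2 and Cdkn1a rose (11.8%, against 0.643% of all genes). Cdkn1a, an inhibitor of the cell cycle, rose by 0.84 ± 0.19 (adjusted p = 0.024, and 0.12 without 1 h replicate 2). Of 15 acute phase and antimicrobial genes Lcn2 and Acod1 rose (13.3%). Acod1 encodes the enzyme that makes itaconate in macrophages and changed by 1.27 ± 0.31 (adjusted p = 0.039, and 0.19 without 0.5 h replicate 2), against 0.82 in the first run alone (adjusted p = 0.24).

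**Figure D5:**
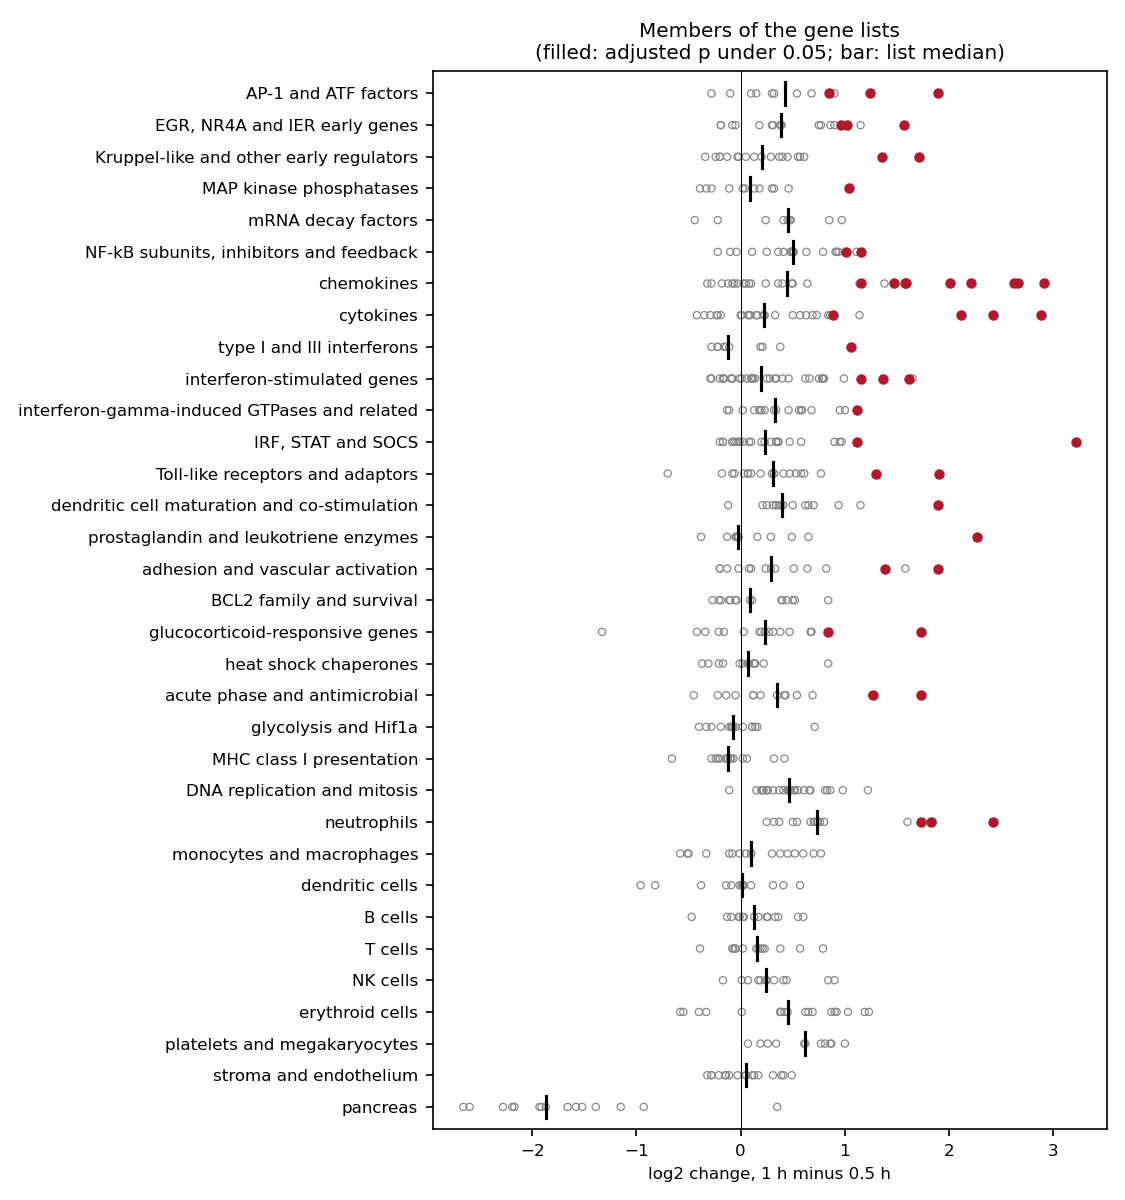
Log2 changes from 0.5 h to 1 h of the members of 33 lists, with a circle for each gene, filled red where the adjusted p was under 0.05, and a bar at the list median. Chemokines hold 9 filled circles, no list holds a filled circle below 0 (0.0525% of all genes fell), and the pancreas median lies at -1.87.

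Part of the genes that rose had no place on a list and no known role in the response, and those given here were chosen after their values were seen. Cdh15, a muscle cadherin, had levels of 0.33, 0.62, 0.15 and 0.70 at 0.5 h and of 1.59, 2.24, 1.44 and 1.59 at 1 h, a rise of 1.27 ± 0.23 (adjusted p = 0.0018). Adcy3, an adenylate cyclase, rose by 1.18 ± 0.22 (adjusted p = 0.003). Of 382 olfactory receptor genes 2 rose, a share near the 0.643% of all genes, Olfr507 by 1.14 ± 0.26 (adjusted p = 0.029, and 0.13 without 0.5 h replicate 3) and Olfr700 by 0.92 ± 0.22 (0.043, and 0.21 without the same array). Nags, an enzyme of the urea cycle, rose by 1.76 ± 0.31 (adjusted p = 0.0018), but its other probes changed by -0.10 and 0.26. Of 29 called genes with another measured probe, 17 had a probe with under 0.5 times the change, and which probe gives the gene's level was not tested.

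The falls were fewer and smaller, and the groups did not overlap for 7 of the 8 genes. Slc45a3, a solute carrier, had levels of 3.45, 3.44, 2.51 and 3.35 at 0.5 h and of 2.38, 2.34, 1.36 and 1.94 at 1 h. Untreated levels lay between 2.04 and 2.50, below every 0.5 h array, and 1 h replicates 3 and 4 lay below this range. All 1 h arrays lay below all 0.5 h arrays, and Slc45a3 fell by 1.18 with an SE of 0.23 (adjusted p = 0.0058). In the first run alone its difference was -0.83 (adjusted p = 0.071), and at 3 h its levels were 1.10, 0.61, 1.20 and 0.50, below those at 1 h (difference -1.15, adjusted p = 0.0011). Zfp503, a zinc finger repressor, had levels of -1.09, -1.21, -1.59 and -1.80 at 0.5 h and of -2.73, -3.05 and -3.58 in the 3 measured 1 h arrays, with replicate 2 not measured. Zfp503 fell by 1.69 with an SE of 0.33 (adjusted p = 0.0063, and 0.073 without 1 h replicate 4). Its untreated levels lay between -2.29 and -0.92, above every measured 1 h array. Nol12, a nucleolar protein, fell by 1.16 (adjusted p = 0.021), but its groups overlapped and a second probe changed by 0.12.

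The remaining falls were called at adjusted p-values between 0.038 and 0.049. Vhl, the tumor suppressor that marks HIF proteins for degradation, had levels of 0.13, -0.32, 0.06 and -0.05 at 0.5 h and of -1.10, -0.43, -0.73 and -0.81 at 1 h, a fall with a difference of -0.72 ± 0.18 (adjusted p = 0.047). Hoxd4 fell by 0.92, Bdh2 by 0.83, Megf10 by 0.77 and Glod5 by 0.70. Leaving out 1 array lost the call of each of these 5, with adjusted p-values up to 0.28. No member of the 33 lists fell, where 0.0525% of all genes did, and the falls are too few to compare by list.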

How the data were processed

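Spleen RNA of BALB/c mice was measured on 34 two-colour arrays. The authors deposited log2 ratios, with spleen in Cy5 over Universal Mouse Reference RNA in Cy3, per the labels. In the labels of the 0.5 h arrays the channel numbers are exchanged while each dye stays on its RNA. These arrays correlated with the 1 h arrays between 0.833 and 0.953 across probes, so no sign was turned. According to the series text, the authors corrected background, removed flagged spots and spots with both signals low, and applied lowess normalization, with BRB ArrayTools and mAdb. Lowess removes a change that most genes share. Each of the 8 arrays held between 29713 and 30571 values. The signal over background behind a ratio is not used here, and the number of arrays limits the precision.

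Here each array was centred on its median. GEO's annotation of the platform gave 1 symbol for 26926 of 36607 probes, several for 203 and none for 9478, and symbols were brought up to date through GRCm38.p6 gene identifiers. The probe with most values stood for a gene, and 5197 of 15312 named genes had more than 1. Genes with values on over 70% of the 34 arrays and on at least 2 arrays of each group were fitted with limma 3.58.1 (lmFit and eBayes, R 4.3.3) over all BALB/c groups, which share 1 estimate of the spread (median residual SD 0.299), and p-values were adjusted by Benjamini-Hochberg over 15252 genes. On simulated data of 15252 genes with these array groups, 100 genes were changed by 1 and 100 by 2 on the log2 scale. The fit recovered 71% of the changes of 1 and 100% of the changes of 2, and called 14 unchanged genes. The simulated noise was independent between genes and arrays and held no effect of a run, so recovery in the real arrays may differ. The p-values rest on array-to-array spread, which may be partly technical.

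The genes named are the 20 largest rises and the falls with an adjusted p under 0.05, groups that do not overlap, at least 3 arrays measured in each and no provisional name, up to 4 members of each of 33 lists with the smallest p, and the members of the AP-1 and EGR lists. Not every such gene is printed. Others were chosen after their values were seen, among them Nol12 and the chemokines Ccl2, Xcl1, Cxcl9 and Cxcl5. The comparison, the members and the lists were chosen with earlier results of these data known. Alternatives were no centring, scaling to the same spread, quantile normalization, other filters, probes and weights, replicate and run blocks, and arrays left out.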

Additional observations from a re-analysis of the deposited data

Results flagged for a closer look

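Among the genes and lists printed, 217 groups of 4 arrays were tested for a single array that stands apart from the other 3, and 12 were found, where chance gives about 1 in 20 groups. In 1 h replicate 2 the level of Tnfaip2 was 2.39, the mean of the AP-1 and ATF list 0.76, that of the MAP kinase phosphatase list 0.24 and that of the heat shock list 0.56, all above the other 1 h arrays. In the same array the mean of the DNA replication and mitosis list was -0.98, below the other 1 h arrays. In 1 h replicate 1 the levels of Mx2 (1.58) and Olfr700 (0.84) were low. In 1 h replicate 4 the level of Il12b was 4.11, above the other 3 at 3.90, 3.91 and 3.93. In 0.5 h replicate 1 the level of Cxcl10 was 3.46, above the others. In 0.5 h replicate 3 the level of Slc45a3 was 2.51 and the mean of the MAP kinase phosphatase list -0.15, both below the others. In 0.5 h replicate 4 the mean of the pancreas list was 0.35, against 6.41, 6.31 and 5.81 in the others.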

How the results depend on the processing

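Each of the 106 called genes kept its direction under those of 25 settings in which it was tested. Of 64 called genes named in the text, 15 stayed called under each of the 25 settings that gave a value for them, among them Socs3, Ccl3, Il12b, Cxcl1, Ccl4, Ptgs2, Il6 and Icam1. The count of called genes was 106 (98 higher, 8 lower). It was 45 (42 and 3) with the 8 arrays alone, 40 (38 and 2) with arrays scaled to the same spread, 56 (49 higher) with quantile normalization, 459 (300 and 159) with array weights and 695 (498 and 197) in the first run alone. Tested as probes, 14 were lower, and 3 falls reached 2-fold. Leaving out 1 array gave between 48 and 105 calls, between 44 and 98 higher genes and between 2 and 17 lower genes. Without 0.5 h replicates 1 and 2 there were 56 calls (55 and 1), and without 1 h replicates 1 and 2, a setting chosen after seeing the data, 31 (29 and 2). With fewer arrays the fit has fewer samples, and for the other settings the cause was not tested. Deviations of same-numbered arrays of the times had correlations of -0.096, 0.278, -0.019 and 0.03 over 14432 genes, and the numbers were not taken as pairs. Correlations over all genes do not show a pattern that a part of the genes shares. For Cxcl2, Tnf, Cd83, Fos, Egr1, Icam1, Irf1, Nfkbiz, Ier3 and Phlda1 replicates 1 and 2 were the higher ones at both times. The means of the cytokine, NF-kB and EGR lists had the same order. A replicate block gave 108 higher and 9 lower genes, and with the 8 arrays alone 67 calls (63 and 4). Changes without a call turned sign for Fos (-0.16) and Egr1 (-0.09) with array weights, for both without 1 h replicates 1 and 2 (-0.25 and -0.02), and for Il1b (-0.06) and S100a8 (-0.29) with the same spread.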
